A study of Mus musculus with 9 samples.

Results

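The genes described here are 10 markers and regulators of the oligodendrocyte and astrocyte lineages: Olig1, Olig2, Sox10, Pdgfra and Cspg4 for oligodendrocyte precursors, and Aldh1l1, Aqp4, Gfap, Apoe and Slc1a2 for astrocytes. They were taken by name from the authors' deposited comparison tables, which list 39255 genes for the deletion and 40366 for the knock-in, and all 10 were found in both. Each carried an adjusted p in both tables, so no member was lost to a filter on low values.

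RNA was sequenced from mouse embryonic cortex at E16.5, in 3 genotypes of 3 libraries each. They differ in HAR1984, one of the human accelerated regions, which are DNA elements conserved among vertebrates that changed quickly on the human lineage. Controls had the mouse element on both alleles (Mm/Mm), deletion embryos lacked it (del/del), and the knock-in combined a human with a mouse allele (Hs/Mm). The labels name CRISPR for the altered genotypes and give E16.6 as the stage of 1 deletion sample, replicate 3. The sources used here give neither the number of founders of each line nor the sex of the embryos.

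Oligodendrocyte precursors arise in the ventral forebrain and migrate into the cortex before birth, with a later dorsal supply, and astrocytes arise from cortical radial glia once neurogenesis declines. OLIG2 and its relative OLIG1 specify the oligodendrocyte lineage, SOX10 acts with them in differentiation, and PDGFRA receives the growth factor that keeps precursors dividing. Astrocytes take up glutamate, buffer water and ions and carry lipids, and several of their marker genes are already active in radial glia.

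No value of a single library could be used. The deposited columns headed FPKM, 12 over both tables, equal the mean over all samples times a random number and hold no measurement of a library. What remains for each gene is the mean normalised count over all samples (baseMean), the Wald statistic of each comparison and its standard error (SE). All log2 fold changes given here are statistic times SE, and all adjusted p are Benjamini-Hochberg adjustments of the Wald p over all genes tested, with a threshold of 0.05. Both tables hold the same baseMean for all 39184 genes they share, so a level for each genotype was derived from baseMean and both fold changes, with the genotypes given equal weight. These derived levels restate the fold changes on the count scale and have no error of their own. Depth per library is unknown. The labels call the cell type neural progenitors. In mean normalised counts per kb of exon the neuronal gene Dcx (5604) stood above the progenitor genes Sox2 (2400.2) and Pax6 (301). It stood below Fabp7 (13078.5), a gene of radial glia, so progenitor genes lay on both sides of it.

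None of the 10 genes passed the threshold in either altered genotype. In the deletion, where 0.976% of 18952 genes tested were called, 5 of the 10 had an unadjusted p under 0.05, against 9.5% of all genes. Of these 2 were higher than control (background 5.19%) and 3 lower (background 4.31%). In the knock-in, where 0.137% of 21222 genes were called, 2 of the 10 had such a p, against 6.92% of all genes, and both were lower, against 3.39%. The members were chosen with earlier results of these data known, so these counts are descriptions.

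Individual genes lay on both sides of the control. Olig1, Olig2, Sox10, Aqp4 and Slc1a2 were below control in both comparisons, Pdgfra and Apoe above it in both, and Cspg4, Aldh1l1 and Gfap had opposite signs. Values below control were seen for 6 of 10 members in deletion embryos (51.7% of all genes) and for 7 of 10 in knock-in embryos (49%). The comparisons share the control libraries, so a sign seen in both is not seen independently. The members' median log2 fold change was -0.20 with the element deleted and -0.10 with the human allele, beside -0.01 and 0.00 for all genes. Summed over the members, the derived level was 16767 normalised counts in control, 16754 in deletion and 15602 in knock-in embryos. In such bulk samples fewer cells of a type and less RNA per cell cannot be told apart.

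**Figure D1:**
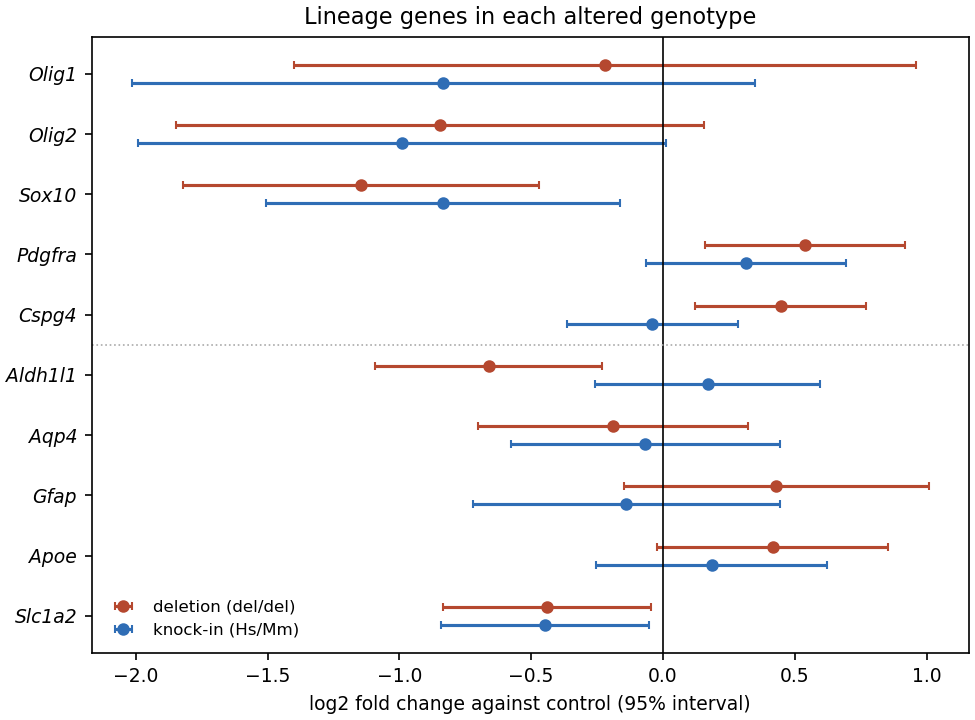
Log2 fold change against control of the 10 lineage genes (horizontal axis), with points for the deletion (red) and the knock-in (blue) and bars for the 95% interval from the deposited SE. The intervals of Sox10 and Slc1a2 lie below 0 in both genotypes, those of Pdgfra and Cspg4 lie above 0 and that of Aldh1l1 below 0 in the deletion, and no gene passed the adjusted threshold.

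The transcription factor Sox10 had the smallest p of the 10 genes in both comparisons. This SOX-family factor, needed for oligodendrocyte differentiation, had a derived level of 272 normalised counts in control, 123 in deletion and 152 in knock-in embryos. Both altered genotypes were thus below the control. Deletion embryos were at 0.452-fold of control (95% interval 0.283 to 0.722), a log2 fold change of -1.15 (SE 0.34). The unadjusted Wald p for 3 libraries against 3 was 8.87e-04, and the adjusted p of 0.0707 missed the threshold. The authors' model shares its spread across genes. Both comparisons hold the same baseMean, so the model may also draw that spread from all 9 libraries. At a looser threshold of 0.1, which 1.63% of all genes passed, Sox10 was the 1 member called. Knock-in embryos were at 0.561-fold (0.352 to 0.894), or -0.83 (SE 0.34) on the log2 scale, with an adjusted p of 0.531.

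Olig2, the basic helix-loop-helix factor that specifies the lineage, had derived levels of 485 in control, 269 in deletion and 244 in knock-in embryos. Its log2 fold changes were -0.85, SE 0.51 (adjusted p = 0.656) with the deletion and -0.99, SE 0.51 (adjusted p = 0.72) with the human allele, by the Wald test. The 95% intervals were 0.278 to 1.11-fold and 0.251 to 1.01-fold. Olig1, its neighbour and relative, stood at 561 in control, 481 in deletion and 314 in knock-in embryos, with log2 fold changes of -0.22 (SE 0.60) and -0.83 (SE 0.60). The intervals of Olig1 were 0.379 to 1.95-fold and 0.247 to 1.27-fold, and those of both Olig genes include no change.

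The errors of these factors were wide for their level. Among the 500 tested genes nearest to Olig1 in baseMean, 99.4% had a smaller SE in the deletion comparison, and their median SE was 0.15. For Olig2 the same share was 96% with a median of 0.16, and for Sox10 it was 90.4% with a median of 0.19. In all, 7 of the 10 members were in the top 10% of SE for their level: Olig1, Olig2, Sox10, Pdgfra, Aldh1l1, Apoe and Slc1a2. Aqp4 had the most ordinary SE, larger than that of 63.4% of genes at its level. Which libraries carry this spread is not known, since no value per library could be used.

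OLIG1 and OLIG2 are also made by progenitors of the ventral forebrain, and genes of that tissue had values below control in the altered genotypes. Of 16 ventral forebrain genes all were below control in the deletion, with 7 called (0.475% of all genes were called lower) and a median of -0.93. The count fell to 3 with the statistic divided by its robust SD over all genes and to 3 with adjustment over every gene with a p. In knock-in embryos all 16 were again below control, with 0 called, 7 at an unadjusted p under 0.05 and a median of -0.66. Their summed derived level was 29032 in control, 17813 in deletion and 19974 in knock-in embryos. The lowest baseMean was 33.9, a mean over all libraries that does not show the level in a single genotype. The lowest log2 fold change of the list with the deletion was -6.40, so some of these genes may be near the floor there. The part of ventral forebrain tissue in the values of Olig1, Olig2 and Sox10 was not tested. For Dlx1 (1.55), Dlx2 (0.47) and Gad1 (1.67) of this list the authors' deposited table gives knock-in fold changes of the opposite sign to the statistic in the same row, and the statistic was followed.

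In mm10 the Olig genes are neighbours on chromosome 16, Olig2 (ENSMUSG00000039830) at 91225457 to 91228677 and Olig1 (ENSMUSG00000046160) at 91269772 to 91271933, with 44.3 kb between their starts. Of the other members with an unadjusted p under 0.05 in the deletion, Sox10 (ENSMUSG00000033006) lies at 79154908 to 79165240 on chromosome 15, Pdgfra at 75152292 to 75198215 on chromosome 5, Cspg4 at 56865033 to 56899870 on chromosome 9, Aldh1l1 at 90486427 to 90600203 on chromosome 6 and Slc1a2 at 102658659 to 102790784 on chromosome 2. The nearest tested genes on either side of the Olig pair were Ifnar2, an interferon receptor gene, at 0.14 (SE 0.11) and 0.03 (SE 0.11), and the pseudogene H3f3a-ps2, at -0.01 (SE 0.10) and 0.15 (SE 0.10), on the log2 scale for deletion and knock-in. Around all members 18 neighbouring genes were examined. Of these 1 passed with the deletion (0.976% of all genes) and 0 with the human allele (0.137%). An unadjusted p under 0.05 was found for 2 and 1 of them (9.5% and 6.92% of all genes). The gene that passed was Gsx2, a homeobox factor of ventral forebrain progenitors beside Pdgfra, at -1.51, SE 0.42 (adjusted p = 0.0432 by the Wald test), opposite in sign to Pdgfra. Adjustment over every gene with a p ended the call of Gsx2 (adjusted p = 0.0879, Wald test).

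The surface markers of precursors had values above control with the deletion. Pdgfra, the receptor for PDGF-A on dividing precursors, had derived levels of 2022 normalised counts in control, 2937 in deletion and 2516 in knock-in embryos. The deletion value was 1.45-fold (95% interval 1.12 to 1.89), or 0.54, SE 0.19 on the log2 scale, which missed the threshold (adjusted p = 0.197, Wald test). The knock-in value was 1.24-fold (0.956 to 1.62), with an adjusted p of 0.787. Cspg4, which encodes the NG2 proteoglycan, had 537 in control, 731 in deletion and 522 in knock-in embryos. The deletion value was 1.36-fold (1.09 to 1.71; log2 0.45, SE 0.17), against 0.973-fold (0.776 to 1.22) with the human allele, and neither passed the threshold.

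PDGFRA and NG2 are also made outside the glial lineage, PDGFRA by meningeal and perivascular fibroblasts and NG2 by pericytes, and genes of those cells had values above control in the same comparison. All 15 meningeal fibroblast genes were above control in deletion embryos, with 6 called (0.501% of all genes were called higher) and a median of 0.82. With the statistic divided by its robust SD 2 of these calls were left. Their summed derived level was 42684 in control, 77877 in deletion and 61068 in knock-in embryos. All 12 pericyte and smooth muscle genes were above control, with 2 called, a median of 0.53 and summed levels of 13093, 17593 and 15911 in the same order. Of the pericyte calls 0 were left with the robust SD and 1 with adjustment over every gene with a p or with a baseMean of at least 10. Every gene of both lists was above control in knock-in embryos too, with 0 called, 4 in each at an unadjusted p under 0.05 and medians of 0.42 and 0.29. The lowest baseMean, a mean over all libraries, was 244 for fibroblasts and 46.3 for pericytes. The part of these cells in the values of Pdgfra and Cspg4 was not tested. Endothelial genes, from the same vessels, had 11 of 12 above control and 3 called with the deletion. The ligand gene Pdgfa was at 0.09 (SE 0.20) and -0.15 (SE 0.20) for deletion and knock-in, not past the threshold.

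The astrocyte members had no common direction. Aldh1l1, a folate enzyme gene widely used as an astrocyte marker, had derived levels of 1316 normalised counts in control, 832 in deletion and 1479 in knock-in embryos, so the deletion was lowest. Deletion embryos stood at 0.632-fold (95% interval 0.469 to 0.852), or -0.66, SE 0.22 on the log2 scale, which missed the threshold (adjusted p = 0.127, Wald test). Knock-in embryos stood at 1.12-fold (0.836 to 1.51), with an adjusted p of 0.914. Slc1a2, the gene of the glutamate transporter GLT-1, had 6741 in control, 4972 in deletion and 4940.0 in knock-in embryos. Its log2 fold changes were close to each other, at -0.44, SE 0.20 (adjusted p = 0.429) and -0.45, SE 0.20 (adjusted p = 0.614) by the Wald test.

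Apoe, whose product carries lipid between cells, had 4527 normalised counts in control, 6043 in deletion and 5149.7 in knock-in embryos, or 0.42 (SE 0.22) and 0.19 (SE 0.22) on the log2 scale. Microglia and macrophages make it too. Of 16 genes of those cells 14 were above control with the deletion, with 2 called (Lyve1 and Mrc1), and 15 with the human allele, with 0 called and 1 at an unadjusted p under 0.05. Their summed derived level was 6175 in control, 9529 in deletion and 7621 in knock-in embryos, the lowest baseMean was 46.6, and their part in the value of Apoe was not tested. Gfap, which encodes the intermediate filament of astrocytes, had 204, 275 and 186 in control, deletion and knock-in, with log2 fold changes of 0.43 (SE 0.30) and -0.14 (SE 0.30). Aqp4, which encodes the water channel of astrocyte endfeet, had 103, 90.2 and 98.2, with -0.19 (SE 0.26) and -0.07 (SE 0.26). The 95% interval of Aqp4 with the deletion ran from 0.615 to 1.25-fold, so a change within these bounds is not excluded.

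**Figure D2:**
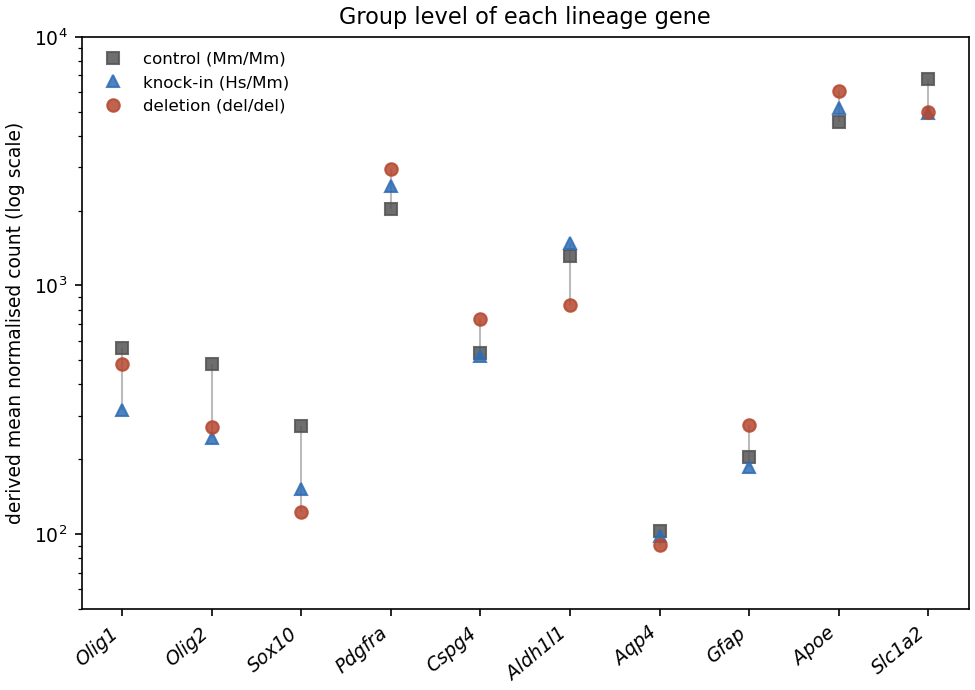
Derived mean normalised count of each lineage gene (vertical axis, log scale) in control (grey squares), knock-in (blue triangles) and deletion (red circles) embryos, 1 point per genotype and gene with no error bar. Sox10 goes from 272 in the control to 152 in the knock-in and 123 in the deletion, Pdgfra from 2022 to 2516 and 2937, and Aqp4 stays between 90.2 and 103.

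Promoter windows are shown for the members with an unadjusted p under 0.05 in the deletion that have an entry, to set the letters of genes with values above control (Pdgfra and Cspg4) beside those with values below it (Aldh1l1 and Slc1a2). They come from RefSeq (GRCm38.p6), hold 250 bases before to 50 after RefSeq's start, and lie on the plus strand at chr5:75152001-75152300, chr9:56864854-56865153, chr6:90550543-90550842 and chr2:102706188-102706487. The windows of Aldh1l1 and Slc1a2 lie inside the annotated genes, past their outermost starts at 90486427 and 102658659. Which start these genes use in the cortex was not tested. Capitals mark matches on either strand to CANNTG, the E-box bound by basic helix-loop-helix factors such as OLIG2.
Pdgfra: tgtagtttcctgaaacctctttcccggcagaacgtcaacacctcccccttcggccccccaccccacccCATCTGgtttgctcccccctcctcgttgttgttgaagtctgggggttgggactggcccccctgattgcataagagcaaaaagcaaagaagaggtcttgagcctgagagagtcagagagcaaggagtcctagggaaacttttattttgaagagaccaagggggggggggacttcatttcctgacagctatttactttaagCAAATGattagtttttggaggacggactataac
Cspg4: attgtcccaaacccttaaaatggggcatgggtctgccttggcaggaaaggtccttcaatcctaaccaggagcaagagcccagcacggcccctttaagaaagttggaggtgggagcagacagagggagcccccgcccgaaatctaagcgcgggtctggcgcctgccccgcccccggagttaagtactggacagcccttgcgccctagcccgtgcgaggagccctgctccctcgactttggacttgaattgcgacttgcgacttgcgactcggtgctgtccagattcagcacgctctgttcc
Aldh1l1: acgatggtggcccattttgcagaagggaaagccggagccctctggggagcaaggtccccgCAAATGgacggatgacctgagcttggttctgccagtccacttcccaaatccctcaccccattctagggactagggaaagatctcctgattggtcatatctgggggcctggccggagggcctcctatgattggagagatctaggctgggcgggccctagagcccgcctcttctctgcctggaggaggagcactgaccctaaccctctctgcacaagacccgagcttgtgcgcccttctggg
Slc1a2: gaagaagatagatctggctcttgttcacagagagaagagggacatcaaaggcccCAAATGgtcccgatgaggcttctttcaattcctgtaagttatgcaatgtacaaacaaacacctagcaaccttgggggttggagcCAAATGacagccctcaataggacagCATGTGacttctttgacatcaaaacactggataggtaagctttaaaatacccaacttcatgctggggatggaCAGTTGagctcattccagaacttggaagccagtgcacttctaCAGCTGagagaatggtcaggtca

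Slc1a2 held 5 E-box matches, 1 of them CAGCTG, Pdgfra held 2, Aldh1l1 held 1 and Cspg4 held 0. Of 32851 promoter windows of the same length 72.3% held at least 1 CANNTG and 16.3% held CAGCTG. A SOX core, ACAAAG, was in none of the windows printed and in 18.7% of all windows. These matches are a description of letters and say nothing of binding.

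Per kb of exon, the scale on which levels of different genes can be ranked, Apoe was the most abundant member with a mean normalised count of 2451 per kb. It was followed by Slc1a2 (423), Aldh1l1 (268), Pdgfra (249), Olig1 (209), Olig2 (132), Sox10 (59.7), Gfap (52.6), Cspg4 (50) and Aqp4 (15.6). The median of 18636 annotated genes tested in both tables was 232 per kb, with 95% of them below Apoe and 6.59% below Aqp4. Whether neighbours in this order, such as Gfap and Cspg4, differ beyond their spread cannot be given from 1 mean per gene. Exon lengths joined all annotated transcripts, so a gene transcribed mostly as a short isoform ranks too low.

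The altered genotypes were also compared with each other, as the difference of their log2 fold changes (knock-in minus deletion). None of the 10 genes passed, where 0.00528% of 18928 genes did, and 2 had an unadjusted p under 0.05, against 2.14% of all genes. Aldh1l1 differed by 0.83 (95% interval 0.22 to 1.44), with the higher level in the knock-in, at an unadjusted p of 0.00729. Cspg4 differed by -0.49 (-0.95 to -0.03), with the higher level in the deletion, at an unadjusted p of 0.0378. Both genotypes were set against the same control libraries, so the SE used is too large. With a covariance for those shared controls the adjusted p was 0.0894 for Aldh1l1 and 0.247 for Cspg4, still short of the threshold. For Slc1a2 the difference was -0.01 with an interval from -0.57 to 0.55.

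The adjusted p that the authors deposited calls 2 members in the knock-in. In the authors' deposited table Sox10 has an adjusted p of 5.12e-04 and Slc1a2 one of 5.96e-04, among 930 genes called there, 4.38% of those tested. The deposited p of these genes is 1000 times smaller than the p that the deposited statistic gives. For Sox10 the authors' deposited table has 1.50e-05 where its statistic of -2.43 gives 0.015. For Slc1a2 the authors' deposited table has 2.59e-05 where its statistic of -2.23 gives 0.0259. The same factor, within a tolerance of 0.001, separates the deposited from the computed p for 923 genes of the knock-in table, which are all the tested genes with a computed p up to 0.0268. Olig2, with a computed p of 0.0529, lies beyond that boundary, and its deposited p equals that of its statistic. For the deletion 0 genes show the factor, and the authors' deposited adjusted p calls 0 members, beside 1.03% of all genes. The sources used here do not say how the factor arose, and the deposited calls of Sox10 and Slc1a2 rest on it.

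**Figure D3:**
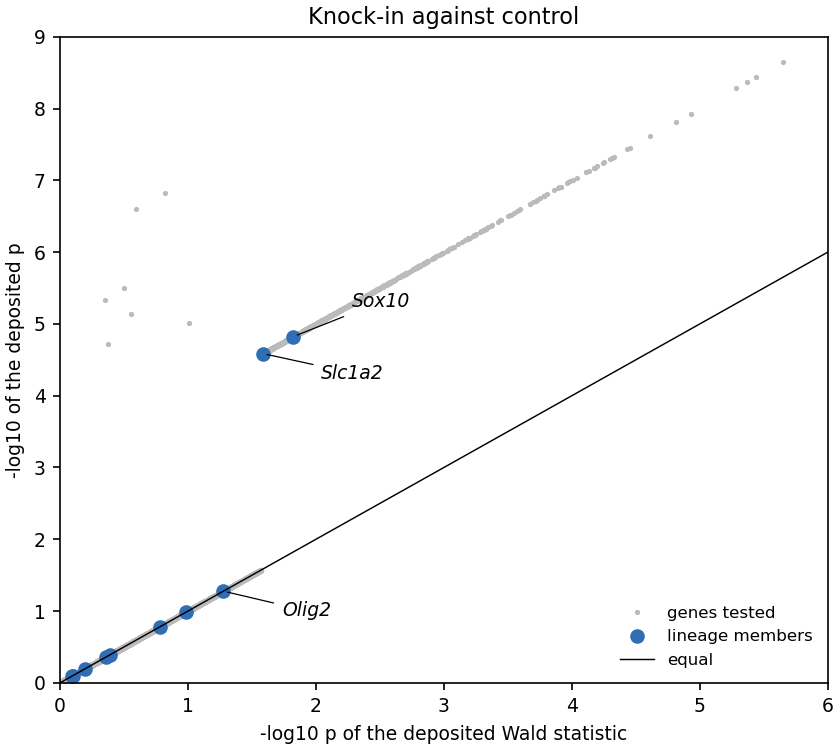
Deposited p (vertical axis) against the p of the deposited Wald statistic (horizontal axis) in the knock-in, both as -log10, with all genes tested in grey, the 10 lineage members in blue and a line of equality. Sox10 and Slc1a2 lie on the upper band with the other genes whose deposited p is 1000 times smaller, the other members lie on the line, and 12 genes lie beyond the axes.

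Wider lists of each lineage, taken from general knowledge of these cells, gave few calls. Of 24 further precursor genes 19 were tested with the deletion, of which 14 were below control (51.7% of all genes), 7 had an unadjusted p under 0.05 (9.5%) and 1 was called (0.976%). The list median was -0.19, and the call was lost with the robust SD and with adjustment over every gene with a p. Sox8, a relative of Sox10, had -0.50 (SE 0.18), Erbb3, a neuregulin receptor gene, had -1.34 (SE 0.51), and Bmp4, which encodes a bone morphogenetic protein, had 0.81 (SE 0.30), none past the threshold.

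With the human allele 21 of the precursor genes were tested, 15 were below control (49% of all genes), 0 were called (0.137%) and 5 had an unadjusted p under 0.05 (6.92%), with a median of -0.18. Gpr17, a receptor gene of precursors committed to differentiate, had derived levels of 185 in control, 192 in deletion and 86.9 in knock-in embryos. Its knock-in log2 fold change was -1.09, SE 0.42 (adjusted p = 0.459 by the Wald test), beside 0.05 (SE 0.41) with the deletion. Lhfpl3 (-0.78, SE 0.27) and Pcdh15 (-0.51, SE 0.20), other precursor markers, had small unadjusted p as well. The authors' deposited table calls 4 genes of this list in the knock-in.

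Fewer myelin genes could be tested, 12 of 20 with the deletion and 16 with the human allele. With the deletion 4 had an unadjusted p under 0.05 (9.5% of all genes) and 1 was called (0.976%). The human allele gave 1 such p (6.92% of all genes) and 0 calls (0.137%). Mobp and Opalin, genes of mature oligodendrocytes, had a baseMean of 2.47 and 0.888. The gene called was Cldn11, a tight junction gene of myelin that arachnoid barrier cells of the meninges also use, which rose by 0.97 (SE 0.27, adjusted p = 0.0461, Wald test) with the deletion, from 1614 to 3155 normalised counts. Mbp, which encodes a main myelin protein, had -0.26 (SE 0.11) there. Adjustment over every gene with a p ended the call of Cldn11 (adjusted p = 0.0938, Wald test).

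Of 30 further astrocyte genes 27 were tested with the deletion, 14 above and 13 below control, with a median of 0.04. An unadjusted p under 0.05 was found for 8 of them (9.5% of all genes), and 1 was called (0.976%). Of the 8, 5 were higher (5.19% of all genes) and 3 lower (4.31%). The gene called was Gja1, which encodes connexin 43 and rose by 0.93 (SE 0.24, adjusted p = 0.0219, Wald test), from 6284 to 11950.3 normalised counts. The robust SD ended this call (adjusted p = 0.0681, Wald test). Gjb6, the connexin 30 gene, had 1.07 (SE 0.45), not past the threshold. Meningeal cells make these connexins as well, and their part in these values was not tested. Abundant genes shared by astrocytes and radial glia had smaller values, with Glul at 0.06 (SE 0.13), Aldoc at -0.07 (SE 0.22) and Slc1a3 at -0.19 (SE 0.14). With the human allele 21 of 29 were above control, with a median of 0.08, 0 called and 0 at an unadjusted p under 0.05.

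Transcription factors and signals that start gliogenesis gave 0 calls in both comparisons, where 0.976% and 0.137% of all genes were called. The 16 factor genes had medians of -0.01 and 0.11 for deletion and knock-in. An unadjusted p under 0.05 was found for 3 and 1 of them (9.5% and 6.92% of all genes). Sox9 and Nfia, which act at the onset of gliogenesis, had -0.28 (SE 0.16) and -0.11 (SE 0.12) with the deletion. Id4 (-0.45, SE 0.15) and Id3 (0.49, SE 0.19), whose products inhibit basic helix-loop-helix factors, lay on opposite sides of control there. The signalling list had 28 and 29 genes tested, medians of 0.07 and 0.13, and 4 and 1 at an unadjusted p under 0.05 (9.5% and 6.92% of all genes). Shh, of the signalling list, had -2.34 (SE 0.82) and -1.14 (SE 0.80), with adjusted p of 0.172 and 0.813 by the Wald test. The authors' deposited adjusted p calls Shh in both comparisons, at 0.017 and 7.69e-06. The 14 radial glia genes had medians of -0.12 and 0.19 with 0 called, and 11 cortical neuron genes had 0.12 and -0.08 with 0 called.

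**Figure D4:**
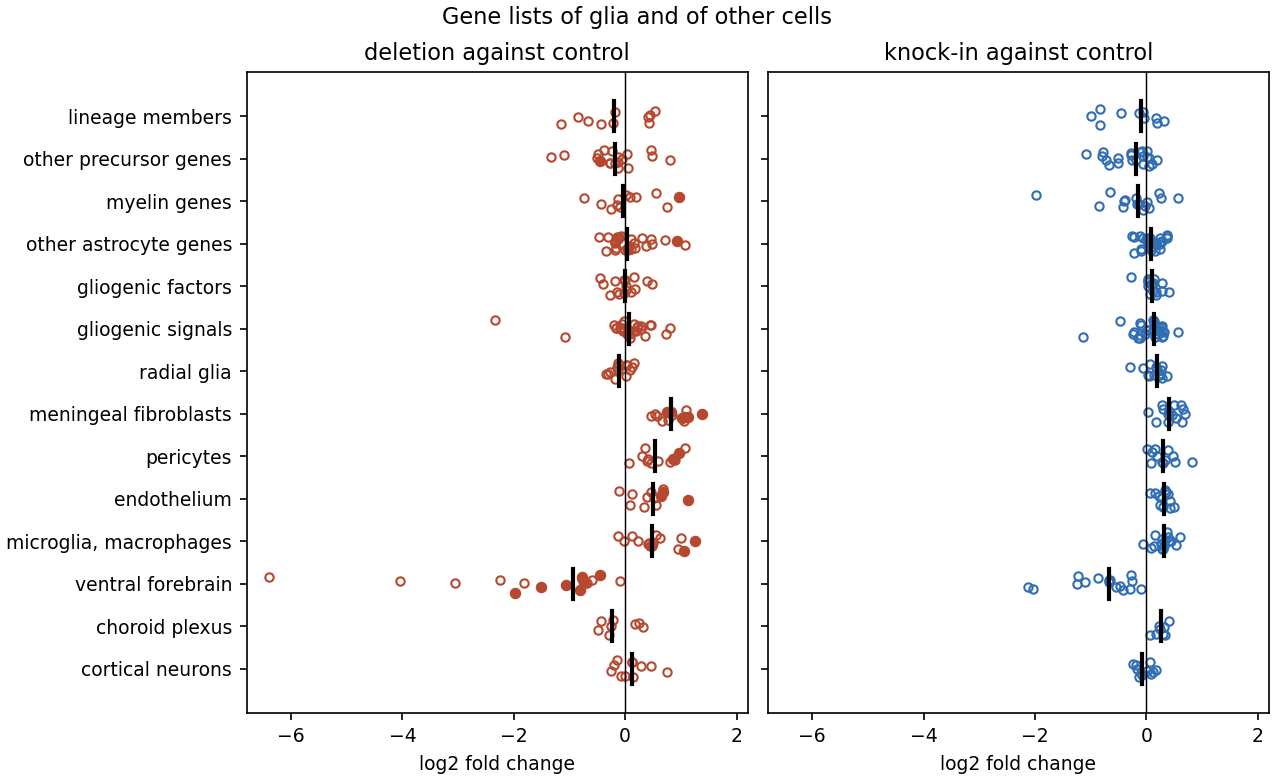
Log2 fold change against control (horizontal axis) of every tested gene of each list, in the deletion (left, red) and the knock-in (right, blue), with filled points for genes past an adjusted p of 0.05 and black bars for list medians. The lineage members spread over both sides of 0, while every meningeal fibroblast gene lies above 0 and every ventral forebrain gene below it in both panels.

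In the knock-in comparison the Y-linked genes Eif2s3y (-27.20, SE 3.91) and Ddx3y (-10.89, SE 2.68) passed the threshold, and with the deletion they had -1.26 (SE 3.73) and -1.38 (SE 2.54). Eif2s3y was also the 1 gene called between knock-in and deletion. The part of embryo sex in the members' values was not tested.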

How the data were processed

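Libraries of mouse cortex RNA were made with an mRNA capture kit, per the labels' protocols. Per the submitters' processing notes the tools were STAR 2.7.9a, Bowtie2 2.4.4 and cutadapt, and the builds mm9 and mm10, with no roles given; the counting method was not found in the sources used here. The 9 libraries form 3 groups of 3, and p-values measure the spread that the authors' fit found between libraries, which may be partly technical.

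Per the file headers, the authors made the log2 fold change, its SE (log2 scale), the Wald score, the raw and adjusted p-value and baseMean with DESeq2. The deposited baseMean is a signal, the mean normalised count over all samples. In the deposited columns headed FPKM, 235530 of 235530 values of the deletion table and 242196 of 242196 of the other equal, within 1e-09, baseMean times draws of R's normal generator (mean 1, SD 0.1, seed 42), and 0 do with seed 43. They served no other purpose. Deposited log2 fold changes disagreed with statistic times SE for 22 deletion and 25 knock-in genes, none a member, and p-values with the statistic for 4 and 930, with 2 members among the latter.

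The p used is the 2-sided normal p of the deposited statistic, adjusted over genes with a deposited adjusted p. Differences between genotypes took the root of the summed squared SEs. Members, lists and tests were chosen with earlier results of these data known. Named genes were the members, their neighbours and, from 13 lists with 213 genes, those past the threshold or with the 3 smallest p per comparison; only some of these are printed, and results for some withheld genes are not reported here. Erbb3, Gjb6, Glul, Slc1a3, Sox9, Nfia, Pdgfa, Mobp, Opalin, Gjc3, Matn4 and the Y-linked genes were chosen outside this rule after their values were seen. Derived levels were devised after the data were seen. Positions and exon lengths are those of GENCODE M21 (mm10). The software was matplotlib 3.10.9, scipy 1.17.1, pandas 2.3.3, numpy 2.4.6 and Python 3.11.15, and the steps were tested on simulated data. Alternatives were other thresholds, filters, adjustments, centring and the deposited values. The recount of each list's calls under these was chosen after the data were seen.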

Additional observations from a re-analysis of the deposited data

How the results depend on the processing

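No paired analysis was possible because the tables give comparisons and no usable value per library, and leaving out each replicate was not run for the same reason. Each member was recomputed in both comparisons with the deposited values, centring on the median of all genes, adjustment over all genes having a p, a baseMean of at least 50 or 10, and the statistic divided by its robust SD. All 10 kept their sign under these, and calls differed only for Sox10 and Slc1a2 in the knock-in with the deposited p-values. The adjusted p of Sox10 with the deletion ran from 0.067 to 0.168 (Wald test).

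The count of members past the threshold, 0 in both comparisons, became 1 (Sox10) with the deletion at an adjusted p of 0.1 and 2 with the human allele by the deposited adjusted p. Of all genes, 185 were called with the deletion, 115 when adjusted over every gene with a p, 38 by Holm's adjustment, 90 with the robust SD, 308 at 0.1 and 75 at 0.01. In knock-in embryos 29 were called, 930 by the deposited adjusted p, 13 by Holm's adjustment, 16 with the robust SD, 58 at 0.1 and 16 at 0.01. Between the altered genotypes 1 gene was called, 8 with the covariance of shared controls and 21 with deposited fold changes. Deposited fold changes moved the ventral forebrain median with the deletion to -1.67 and reversed Dlx1 (1.55), Dlx2 (0.47), Gad1 (1.67) and Shh (1.44) in the knock-in. Centring moved Dcx with the deletion across 0, to 0.0042. Of the named genes called with the deletion, 12 lost the call with the robust SD, 8 with adjustment over every gene with a p and 3 with a baseMean of at least 10. With the robust SD these included Gja1 (adjusted p = 0.0681) and Cldn11 (0.122) by the Wald test. Unknown depth per library limits the low genes, Aqp4 first among the members.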

Other observations

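Nkx6-2, a homeobox gene of ventral progenitors and of oligodendrocytes, has no adjusted p in the deletion table and a baseMean of 8.26. Its log2 fold change there was -4.21 (SE 1.05), and adjusted over all 39255 genes with a p it had 0.026 by the Wald test. Its derived levels were 19 normalised counts in control, 1.02 in deletion and 4.81 in knock-in embryos. Gjc3, a connexin gene of oligodendrocytes with a baseMean of 14.2, has no adjusted p there either, with -1.45 (SE 0.54) for the deletion and -0.64 (SE 0.50) for the knock-in. Matn4, an extracellular matrix gene of precursors, had -1.10 (SE 0.56) and -0.67 (SE 0.56), neither past the threshold.

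Choroid plexus genes, which mark another tissue beside the cortex, had a median SE of 1.21 in both comparisons, beside 0.24 for the lineage members. Their median log2 fold changes were -0.24 for the deletion and 0.26 for the knock-in, with 0 of 8 called by the Wald test and 0 at an unadjusted p under 0.05 in either.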
